A study of Rattus norvegicus with 9 samples.

Results

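The early transcriptional response to bone morphogenetic protein 7 (BMP-7) in sympathetic neurons was read from 3 arrays of cultures given BMP-7 for 6 hr (BMP6h) and 3 arrays of cultures kept without it (control), which are 6 of the 9 arrays of the series. All probe sets other than the Affymetrix controls were taken, 8740 of 8799. The neurons were dissociated from superior cervical ganglia of Holtzman rats at embryonic day 21 and grown without serum and without added glia, in medium with nerve growth factor at 100 ng/ml, after 48 h of cytosine arabinoside to remove dividing cells. The labels place the addition of BMP-7 at 50 ng/ml on day 5 in culture and give the control cultures 24 h in plain medium, and the Methods put RNA isolation for every condition together on day 6. Each array holds 1 RNA pool from several culture dishes, and the experiment was repeated on 3 dissections, each of which supplied all conditions. The first replicate of every condition was hybridized in array batch 1, which took 10 µg of labeled cRNA, and the other replicates went into batch 2 at 5 µg. The remaining 3 arrays, BMP-7 for 24 hr, entered the model for the spread between replicates. Within 6 hr, the inhibitor of differentiation genes Id2 and Id3 and the phosphatase gene Dusp1 rose, and several feedback genes of the BMP pathway had higher values.

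BMPs bind paired serine/threonine kinase receptors, which phosphorylate Smad proteins that enter the nucleus and, with Smad4, act on target genes. Among the best known direct targets are the Id genes, whose products bind basic helix-loop-helix factors and keep them off DNA, and a set of feedback inhibitors such as the secreted antagonist noggin and the inhibitory Smads. In sympathetic neurons BMP-7 is known for starting the growth of dendrites, a slow response that requires new transcription.

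Transcripts of the labelled cell type were present on all 6 arrays. The 15 measured neuron markers averaged 11.31 to 11.40 on the log2 scale, and Th, tyrosine hydroxylase, stood at 13.36 to 13.50. Array values of different probe sets are not comparable as levels, so the marker lists are read only between arrays. Fibroblast and matrix markers averaged 9.01 to 9.15 over 27 genes. The glial list of 19 genes averaged 7.61 to 7.73 on the control arrays and 7.60 to 7.67 on the BMP6h arrays. Fewer cells of a type and less RNA per cell cannot be told apart in such pools.

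One array stood apart. On BMP6h replicate 2, 707 probe sets lay more than 1 log2 unit above the mean of the other BMP6h arrays and 166 lay as far below, together 9.99% of all. On BMP6h replicate 1 this share was 0.103% and on control replicate 1 it was 0.114%, whereas control replicate 3 had 3.84% and BMP6h replicate 3 had 4.21%. The comparison mean includes replicate 2 for BMP6h replicate 1 and for BMP6h replicate 3 alike. On replicate 3, 357 probe sets lay below the limit, and on replicate 1, 7 did. The excess on replicate 2 was among dim probe sets: 17.6% of the dimmest 25% lay above the limit, 12.5% of the next, 2.24% of the third and 0% of the brightest. The genes farthest up were Neurog3 (8.01 against 5.37 and 4.49 on the other BMP6h arrays), Aadat (7.03 against 4.40 and 3.62), Ckmt2 (7.01 against 4.45 and 3.60), Hao2, Thrb, Slc2a2, Dpp4, Gnmt, C9 and Azgp1. Several of these are genes of liver, muscle or pancreas rather than of neurons. Not all of their probe sets followed. Further probe sets of Azgp1 lay 2.59 and -0.02 from the mean of the other BMP6h arrays, those of Gnmt 1.10 and 0.34, and that of Dpp4 -0.37. For Aadat and Ckmt2 the second probe sets lay at 2.66 and 2.68. None of the genes farthest up differed from control at the thresholds of the Methods. The genes farthest down were Ivns1abp, Vps33b, Klf10 at 1 of its probe sets, Gper1, Lipa, Cdc42ep3, Ly6al, Galnt16, Polr1d and Pdlim3. The hexokinase control probe sets, which compare the 3′ with the 5′ end of a transcript, differed by 1.14 on replicate 2 and by 1.44 to 1.88 on the other 5 arrays of the comparison. The same measure for beta-actin was 0.57 on replicate 2, within the 0.53 to 0.75 of the other arrays, and for GAPDH it was 0.47, just above their 0.38 to 0.45. For the 707 probe sets, the other arrays of batch 2 lay a median of 0.25 below the arrays of batch 1, where over all probe sets they lay 0.02 above. The deposited values had been adjusted to equal batch means, so where replicate 2 lies high the other arrays of batch 2 are pulled low by arithmetic. That median is therefore no separate observation about replicate 2. What set replicate 2 apart was not tested, and each count that leads a paragraph is also given without it where it changed.

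**Figure D1:**
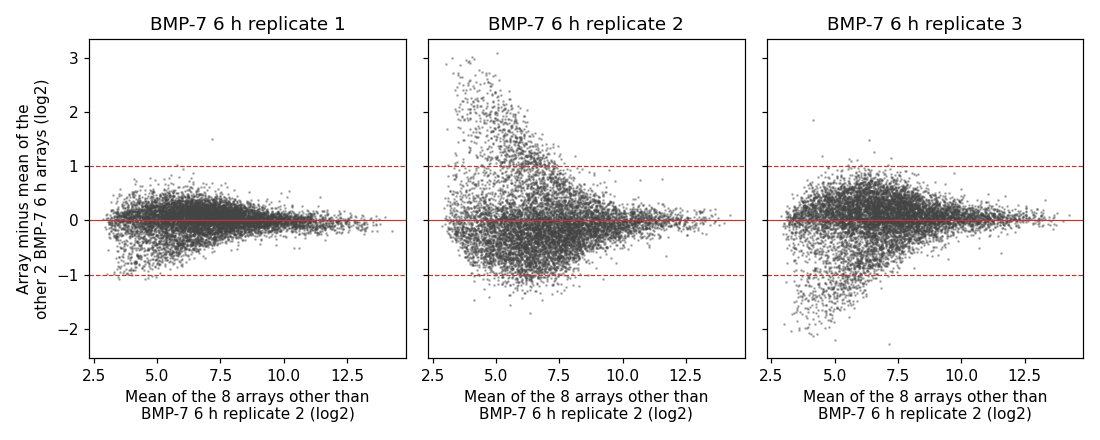
Difference of each BMP6h array from the mean of the other BMP6h arrays (y axis, log2) against the mean of the 8 arrays other than BMP6h replicate 2 (x axis, log2), 1 point per probe set, with dashed lines at 1 log2 unit. The plume of dim probe sets above the upper line belongs to replicate 2. Replicates 1 and 3 are each compared with a mean that includes replicate 2, with 7 points under the lower line on replicate 1 and 357 on replicate 3.

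With limma, condition and array batch as terms and Benjamini-Hochberg adjustment over the 8740 probe sets, 4 probe sets (0.0458%) passed an adjusted p of 0.05, and all 4 rose. The Methods asked less, namely a change of 1.2-fold or more (0.26 on the log2 scale) with p below 0.05 before adjustment, and 151 probe sets passed (1.73%), 77 higher (0.881%) and 74 lower (0.847%). They name 108 genes, or 2.28% of 4736, with 55 higher (1.16%) and 53 lower (1.12%). An unadjusted threshold of 0.05 by itself passes 5% of probe sets when nothing differs, so the 151 are fewer than that share. The fold minimum removed none of them. The 3 BMP6h arrays lay wholly above the 3 control arrays for 319 probe sets (3.65%) and wholly below for 608 (6.96%). Of the 151, 74 higher and 56 lower ones were among these.

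Id2 held the largest change. Its control values were 6.99, 7.02 and 6.55, and its BMP6h values were 9.31, 9.16 and 9.36. All 3 treated arrays thus lay more than 2 log2 units above every control, replicate 2 included, and the difference was 2.43 (standard error 0.17, adjusted p = 0.00721), a 5.37-fold rise. Id3, a close relative, went from 7.82, 7.77 and 8.33 to 9.73, 9.78 and 9.70 and rose by 1.76 (SE 0.17, adjusted p = 0.0292). Its other probe set read 6.79, 7.23 and 6.66 in control and 8.47, 8.17 and 8.39 after BMP-7, a difference of 1.45 that just missed the adjusted threshold (adjusted p = 0.0672). Neither probe set of Id3 overlapped between the groups. Id1 was read by 1 probe set at 7.59, 7.68 and 6.60 in control and 9.12, 9.38 and 9.35 in BMP6h, a difference of 1.99 (SE 0.28, adjusted p = 0.134). The larger standard error went with control replicate 3, 1 log2 unit below the other controls. A second probe set named for Id1 stood at 7.31 to 7.62 in control and 7.52 to 7.65 in BMP6h and did not separate the groups. Id4 is not measured by a probe set named here.

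Nog, which encodes noggin, came next by size. Its control values of 5.82, 6.30 and 5.23 were spread over 1 log2 unit, whereas the BMP6h values of 7.83, 7.96 and 7.85 were almost the same. The difference was 2.10 (SE 0.26, adjusted p = 0.0672), 4.29-fold, and its dimmer probe set was higher by 1.13 with overlapping arrays.

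Dusp1 encodes a dual specificity phosphatase that inactivates MAP kinases and is itself an immediate early gene. Of its 3 probe sets, 1 went from 6.65, 6.81 and 6.73 to 8.02, 7.72 and 7.88 and rose by 1.14 (SE 0.13, adjusted p = 0.0483). The other probe sets were higher by 1.32 and 0.78, and none of the 3 overlapped between the groups. The remaining probe set that rose, rc_AI230256_at, names no gene here. It read 7.17, 7.11 and 7.16 in control and 9.08, 9.44 and 8.71 in BMP6h, a difference of 1.93 (SE 0.18, adjusted p = 0.0292). Replicate 2 was the highest of the 3, and without it the difference was 1.73. Just outside the adjusted threshold lay a further unnamed probe set, rc_AA874889_g_at, at 1.42 (adjusted p = 0.0672). Pmepa1 at 0.89 (adjusted p = 0.184) and Cxxc5 at 0.72 (adjusted p = 0.357) were well outside it.

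The stretch before the start of transcription is printed for these 5 genes, since all 5 moved within 6 hr and this is where Smad and cAMP elements were looked for. The sequences are RefSeq's of build GRCr8 and cover the 250 bases before the annotated start, 5′ to 3′, in lower case. Capitals mark GGCGCC (a GC-rich Smad element of BMP targets), CAGAC (a Smad box) and TGACG (part of the cAMP element), on either strand.
Id2, chr6:47470996-47471245, minus strand: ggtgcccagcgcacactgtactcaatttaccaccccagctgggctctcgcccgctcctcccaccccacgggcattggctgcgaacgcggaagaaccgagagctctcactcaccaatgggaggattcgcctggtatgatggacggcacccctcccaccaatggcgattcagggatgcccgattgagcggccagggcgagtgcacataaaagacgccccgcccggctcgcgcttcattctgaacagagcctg
Id3, chr5:153656041-153656290, plus strand: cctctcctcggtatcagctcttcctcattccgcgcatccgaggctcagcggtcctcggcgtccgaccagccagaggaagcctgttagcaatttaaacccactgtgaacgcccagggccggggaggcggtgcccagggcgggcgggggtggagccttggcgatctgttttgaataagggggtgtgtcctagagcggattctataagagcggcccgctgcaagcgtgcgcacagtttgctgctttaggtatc
Id1, chr3:161671314-161671563, plus strand: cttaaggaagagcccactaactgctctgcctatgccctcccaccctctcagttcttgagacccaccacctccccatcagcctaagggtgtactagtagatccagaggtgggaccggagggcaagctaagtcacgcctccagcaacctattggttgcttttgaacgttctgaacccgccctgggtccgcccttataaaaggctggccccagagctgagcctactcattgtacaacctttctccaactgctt
Nog, chr10:74627502-74627751, minus strand: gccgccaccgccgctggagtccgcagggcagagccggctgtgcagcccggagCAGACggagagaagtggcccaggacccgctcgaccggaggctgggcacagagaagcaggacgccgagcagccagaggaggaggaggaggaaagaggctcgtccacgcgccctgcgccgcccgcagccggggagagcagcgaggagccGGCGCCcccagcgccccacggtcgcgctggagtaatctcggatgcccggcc
Dusp1, chr10:17184603-17184852, plus strand: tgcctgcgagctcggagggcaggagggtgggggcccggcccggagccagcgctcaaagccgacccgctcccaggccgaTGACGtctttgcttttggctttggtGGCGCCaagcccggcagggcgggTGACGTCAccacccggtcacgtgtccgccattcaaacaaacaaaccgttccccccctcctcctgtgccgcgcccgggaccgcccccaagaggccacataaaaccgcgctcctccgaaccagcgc
Searched together with the 50 bases after the start, the windows of Nog and Dusp1 each held GGCGCC once, at 51 and 147 bases before the start. Dusp1 held TGACG 3 times, and its matches at 124 and 121 bases before the start are the overlapping strands of 1 palindromic cAMP element. Nog held CAGAC at 198 bases before the start, and Id1 held it 23 bases past the start, outside the printed stretch. None of these 3 motifs was found in the windows of Id2 and Id3, which says only that the letters are not in these 300 bases. Of all 27457 promoters in the table, 11.8% held GGCGCC, 50% CAGAC, 22% TGACG, 71.6% the E-box CANNTG and 7.33% the AP-1 element TGANTCA. For genes on the array the GGCGCC share was 18.8% of 3879. Among genes higher at the thresholds of the Methods it was 15 of 43 (34.9%), Pmepa1, Smad7, Klf9, Drgx and Efna1 among them, and among those lower it was 3 of 40 (7.5%). CAGAC stood at 51.2% and 50% in the same 2 groups, near its share in all promoters. TGACG stood at 27.9% and 25%, against 28.5% of genes on the array. CANNTG stood at 55.8% and 70% against 65.2%, and TGANTCA at 2.33% and 7.5% against 5.83%. These shares are descriptions and were not tested.

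In the wider set of BMP and TGF-beta targets and feedback genes, 11 of 24 measured were higher at the thresholds of the Methods and 0 lower, against 2.28% of all genes in either direction, and the median log2 difference of the list was 0.34 against -0.03 over all genes. The list was written with earlier results of these data known and holds genes that the study reports from these arrays. Its count therefore gives no independent evidence. Id2 and Id3 are the members past the adjusted test. Pmepa1, a membrane protein that dampens TGF-beta signaling, went from 8.75, 8.68 and 8.53 to 9.49, 9.67 and 9.48. Smad7, an inhibitory Smad, went from 6.20, 6.76 and 5.79 to 7.03, 6.79 and 6.84, a difference of 0.64 with the treated arrays only just above the highest control. Cxxc5, a zinc finger protein, read 9.06, 8.93 and 9.13 in control and 9.75, 9.72 and 9.82 in BMP6h, well apart. Hand1, a basic helix-loop-helix factor, was higher by 0.83 (SE 0.19), Klf10, a TGF-beta-inducible Kruppel-like factor, by 0.72 (SE 0.17), the AP-1 subunit gene Junb by 0.57 (SE 0.16) and the netrin receptor gene Unc5b by 0.37 (SE 0.13). All had an adjusted p over 0.05. Klf10 passed at 1 of its 3 probe sets, with the others at 0.56 and 0.02. Junb passed at 1 of 2, with the other at 0.20. The count was 11 and 0 again without BMP6h replicate 2, with a median of 0.25. Members that did not pass include Chrd, the antagonist chordin, at -0.24, Hand2 at -0.08, Msx1 at -0.15 and Fst, follistatin, at 0.17.

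Of 31 measured genes that send or receive the signal (ligands, receptors and Smads), 0 passed the thresholds of the Methods in either direction, with 0 also without replicate 2, and their median was -0.02. With 2.28% of all genes passing, fewer than 1 member of such a list would pass at that share, so the count does not set the list apart, and no test compared it with the targets. Bmpr1a, a type I BMP receptor, was at 0.20 (SE 0.19), Smad1, which carries the BMP signal, at 0.09, Smad4 at -0.26 and Bmp7 itself at 0.07. The extremes were Bmp4 at -0.45 and Smad3 at 0.44.

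**Figure D2:**
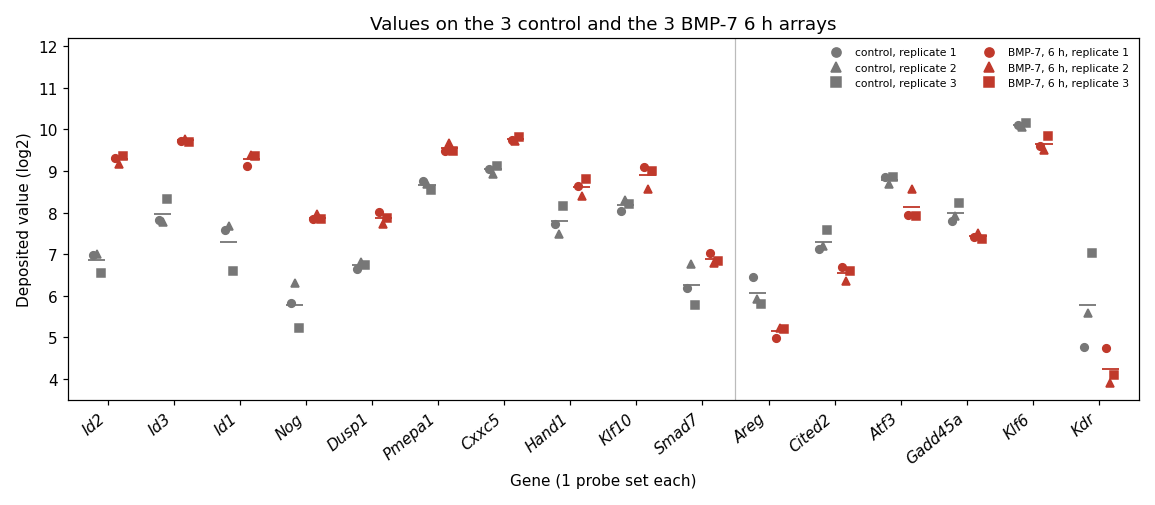
Deposited log2 values (y axis) of 1 probe set per gene (x axis) on the 3 control arrays (grey) and the 3 BMP6h arrays (red), with the replicates as circles, triangles and squares and the group means as lines. Genes left of the vertical line were higher and those right of it lower in BMP6h, with Kdr spread from 4.76 to 7.02 in control.

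The counts of this and the following lists stand beside the 2.28% of all genes that passed in either direction, 1.16% higher and 1.12% lower. No list was tested against that share. The MAP kinase list, 22 genes, had 2 higher and 0 lower, Dusp1 and Map3k1. Map3k1 encodes a kinase upstream of JNK and ERK. Its 3 probe sets agreed closely, with differences of 0.69, 0.64 and 0.60, and at the brightest the values went from 7.76, 7.96 and 7.89 to 8.77, 8.27 and 8.49 without overlap. Replicate 2 was the lowest treated array on each of the 3, so that without it the differences were larger, at 0.76 to 0.81. Among 11 EGF family ligands and receptors, 1 was higher and 1 lower. Hbegf, heparin-binding EGF-like growth factor, went from 6.29, 6.65 and 5.65 to 7.26, 7.01 and 7.29 (0.99, SE 0.25), although its other probe set stood at -0.14. Areg, amphiregulin, another ligand of the same receptor, went the other way, from 6.46, 5.93 and 5.80 to 4.99, 5.24 and 5.21 (-0.92, SE 0.21). The groups overlapped for neither ligand.

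Immediate early and AP-1 genes did not move as a block. Of 28, 2 were higher (Junb and Ier3) and 2 lower (Atf3 and Jun), and the median was -0.05. Fos was at 0.10, 0.13 and 0.24 at its 3 probe sets and did not pass. Atf3, a stress-induced factor of the ATF family, went from 8.86, 8.68 and 8.84 to 7.94, 8.57 and 7.92, with replicate 2 the least changed and a difference of -0.65 that became -0.88 without it. Jun passed at 1 of 4 probe sets, at -0.52, and its other probe sets were at -0.38, 0.05 and 0.04. Without replicate 2 it did not pass (-0.35), and Btg1, an antiproliferative gene, passed as lower in its place. Ier3 was higher by 0.72 at 1 of 2 probe sets, with replicate 2 at 7.75 against 6.92 and 6.80, and by 0.39 without it. Egr1 had 4 probe sets, all lower, from -0.63 to -0.16, and none passed.

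Among 36 lineage and homeobox transcription factors, 3 were higher and 2 lower. Drgx, a homeobox gene known from sensory neurons, went from 6.41, 6.62 and 5.54 to 6.90, 7.23 and 7.45 (1.00, SE 0.29), and Cux1 was higher by 0.61, though not past the thresholds without replicate 2 (0.44). Cited2, a CBP/p300-binding transcriptional regulator, was lower at all 3 of its probe sets, at -0.61, -0.76 and -0.59, without overlap at any. Ebf1 was lower, at -0.36. Hand2, Phox2a and Gata3, which set the noradrenergic fate of these neurons, were at -0.08, 0.05 and 0.31 and none passed. Without replicate 2, 4 of the 36 were higher and 2 lower, with Pou3f1 and Tcf12 added and Cux1 gone. The Kruppel-like list, 14 genes, had 3 higher and 1 lower. Klf9, a factor induced by glucocorticoid and thyroid hormone, was higher by 0.90 (SE 0.23) at 1 of 2 probe sets, and by 0.68 without replicate 2. Its other probe set, at 0.72, did not pass and was at 0.20 without replicate 2. Zfp148 was higher by 0.63, with overlapping arrays. Klf6 went from 10.11, 10.05 and 10.16 to 9.60, 9.51 and 9.84 (-0.46, SE 0.13), a small difference clear of the controls. Of 33 nuclear receptors, Rxrg, a retinoid X receptor, was higher at 2 of 3 probe sets (0.76 and 0.63) and Nr5a1 and Nr3c1 were lower, at -0.91 and -0.44. Nr3c1 passed at 1 of its 3 probe sets, and the others were at 0.22 and -0.006. Without replicate 2, neither Nr5a1 nor Nr3c1 passed.

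Of 16 noradrenergic enzymes and transporters and 31 neuropeptides and granins, 0 passed in either direction, and 0 passed without replicate 2, which is near the 2.28% of all genes for lists this short. Th was at -0.07 (SE 0.11) and Dbh, dopamine beta-hydroxylase, at 0.16 (SE 0.10). Of 35 genes of the dendrite and axon cytoskeleton, 1 passed, Map2, whose protein marks dendrites, at 1 of its 5 probe sets (0.57). Its brightest probe set was at 0.01 (SE 0.14), and without replicate 2 no member passed. Mapt, the axonal tau gene, was between -0.15 and -0.06 at 3 probe sets. Of 18 neurotrophin and GDNF family genes, Ngfr, the p75 neurotrophin receptor, was higher by 0.73, from 10.06, 9.87 and 10.43 to 10.88, 10.67 and 11.01, and Pspn, persephin, was lower, at -0.54. A second probe set of Ngfr stood at 0.09. Pspn did not pass without replicate 2. In the Notch list of 20 genes, 1 passed, the ligand gene Jag1, from 5.47, 5.01 and 5.39 to 5.79, 6.27 and 6.00 (0.73, SE 0.20). Notch1 and Dll1 did not pass.

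Axon guidance genes had 3 of 29 higher and 0 lower, namely Efna1, Cdh22 and Unc5b. Efna1 encodes ephrin-A1. At its dimmer probe set the values went from 5.40, 5.21 and 4.62 to 5.95, 7.76 and 5.60, a difference of 1.37 that was 0.64 without replicate 2. At the brighter one they went from 6.95, 7.26 and 6.53 to 7.60, 7.38 and 7.89, a difference of 0.71 that was 0.84 without it. Cdh22 was higher by 0.79 at 1 probe set and by 0.09 at the other. No cell cycle gene of 28 passed, and of 28 stress and growth arrest genes Atf3 and Gadd45a were lower. Gadd45a, a growth arrest gene induced by DNA damage, was lower at all 4 probe sets, between -0.71 and -0.52, without overlap at any.

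Blood vessel genes had 10 of 36 higher and 1 lower, against 1.16% and 1.12% of all genes, with a median of 0.12 against -0.03. Without replicate 2 they had 10 higher and 0 lower, where Vegfa no longer passed and Fgfr1 did. Id1, Id3, Hand1, Junb, Klf10 and Unc5b among them also belong to the BMP target list. The others are Hbegf, Efna1, Vegfa and Cxcr4. Vegfa was higher at 2 of 4 probe sets, by 0.45 and 0.33, and its brightest was at 0.06. None of the 4 passed without replicate 2. Cxcr4, a chemokine receptor of growing neurons, was higher at all 3 probe sets, by 0.51 to 0.75, and passed at 2 of them without replicate 2. Of 54 genes of gonadotropin releasing hormone signaling, 3 were higher and 2 lower (3 and 1 without replicate 2), all of them named above. Both pathways were picked by the study from these arrays, and their counts therefore give no independent evidence. Of 22 oxygen sensing and hypoxia genes, Vegfa was higher and Cited2 lower, and without replicate 2 Adm, adrenomedullin, was higher in place of Vegfa.

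Kdr, a VEGF receptor of endothelium, had the lowest log2 difference among all probe sets past the thresholds of the Methods. Its control arrays read 4.76, 5.59 and 7.02 and its BMP6h arrays 4.75, 3.90 and 4.09, so that the highest treated value nearly met the lowest control. The difference of -1.54 had a standard error of 0.56, the replicate 1 arrays hardly differed, and Kdr did not pass without replicate 2. The 9 endothelial and mural markers had a mean of 6.52, 6.64 and 6.96 in control and 6.53, 6.24 and 6.37 in BMP6h, with a median difference of -0.28 and of -0.10 without replicate 2. Pecam1, a defining marker, was at 5.50 to 5.84 in control and 5.53 to 5.65 in BMP6h. The part of these cells in the Kdr value was not tested. Of the 27 fibroblast markers, Col1a1 was higher (2 of 4 probe sets, 0.37 and 0.31) and Dcn lower (1 of 4, -0.39), and of 16 macrophage and blood cell markers Mcpt3, a mast cell protease, was lower, at -0.46. Among 19 glial markers the 1 that passed was Ngfr, which the neurons also express. Col1a1 and Dcn were also the members that passed among 59 genes of the extracellular matrix, proteases and integrins, Dcn not without replicate 2.

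**Figure D3:**
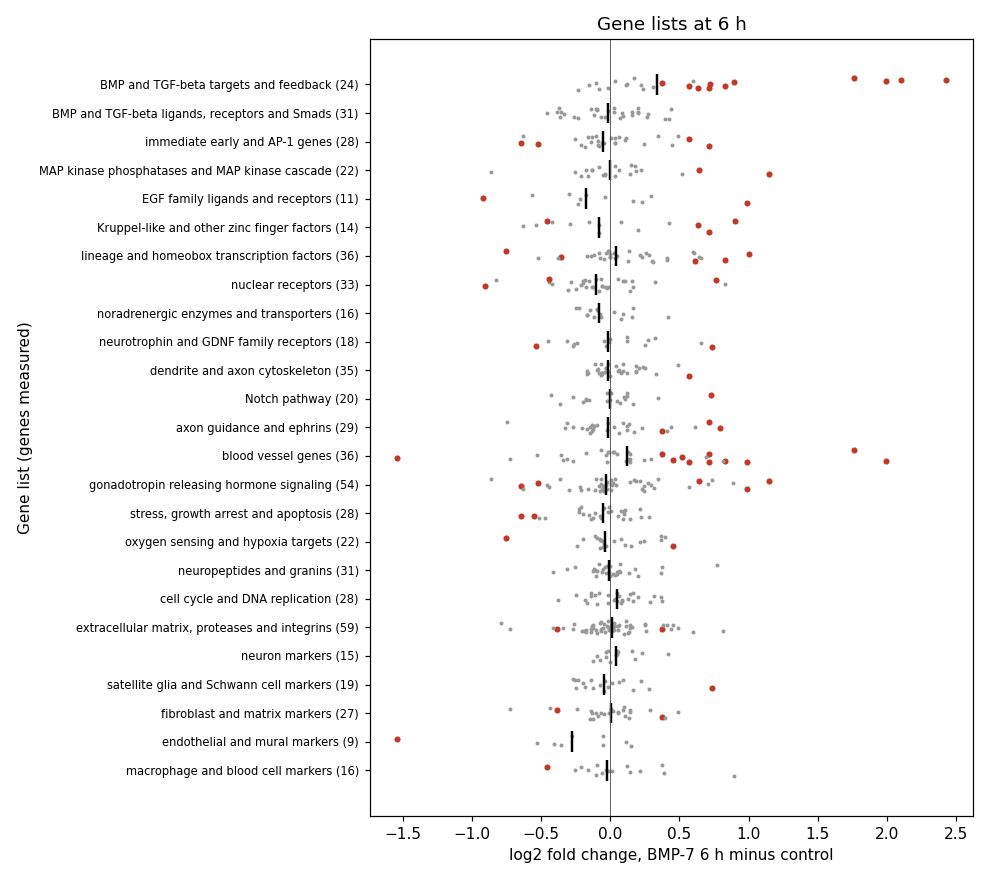
log2 fold changes (x axis) of the measured members of 25 gene and marker lists (y axis, number measured in brackets), with members past the thresholds of the Methods in red at their passing probe set, the others in grey at their brightest probe set, and list medians as black bars. The BMP and TGF-beta target list has the highest median, 0.34, and red points only on the right.

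The calls were then traced without single arrays. Without BMP6h replicate 2, 3 probe sets (0.0343%) passed the adjusted test (Id2, Dusp1 and rc_AI230256_at), and 125 (1.43%) passed the thresholds of the Methods, 87 higher (0.995%) and 38 lower (0.435%). Of the 151, all kept their sign, but 67 passed again (44.4% of the 151 and 53.6% of the 125), 50 of the 77 higher and 17 of the 74 lower. Without control replicate 3, 67 probe sets passed, 55 higher and 12 lower, and these held 46 of the 77 higher and 9 of the 74 lower. Both times 42 higher and 8 lower probe sets passed. The 8 lower ones are Areg, Atf3, Cited2 at 2 probe sets, Gadd45a, Klf6, Imp3 and Casz1, the last named after its values were seen. Within replicate 1 alone, hybridized in the batch without the outlying arrays, the difference had the sign of the call for 77 of 77 higher and 57 of 74 lower probe sets and passed 1.2-fold for 61 and 20. The replicate 1 arrays took part in making the calls, so agreement in sign and size was favoured from the start. These values have no test and give no independent evidence. Other arrays moved the split the opposite way, to 89 higher and 177 lower without control replicate 1, 81 and 135 without control replicate 2 and 89 and 130 without BMP6h replicate 1. Without BMP6h replicate 3, 376 were higher and 233 lower, 609 in all.

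**Figure D4:**
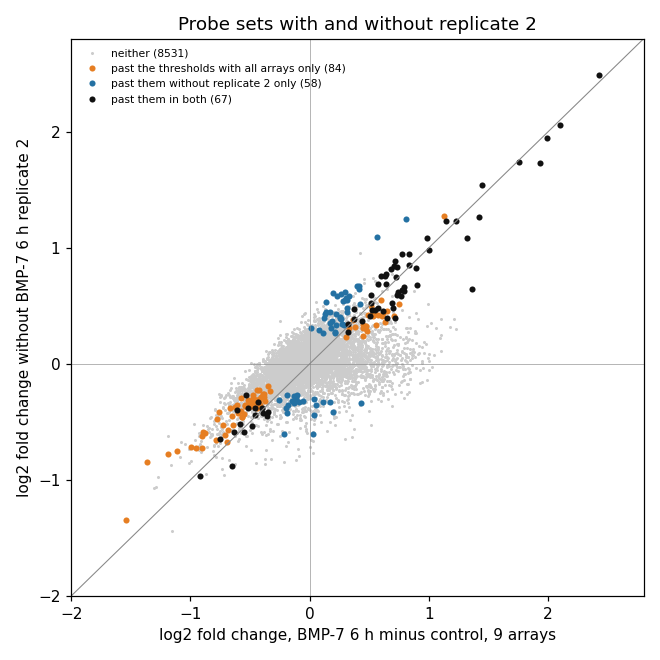
log2 fold change of each of the 8740 probe sets with all 9 arrays (x axis) and without BMP6h replicate 2 (y axis), coloured by which of the fits passes the thresholds of the Methods, with the line of equality. The 67 probe sets past them in both are black, and most of the 84 past them with all arrays alone (orange) are lower in BMP6h.

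Several of the largest lower values did not pass without BMP6h replicate 2. Crybb1, a lens crystallin gene, read 6.30, 6.48 and 7.56 in control, Abcc8, a subunit of the ATP-sensitive potassium channel, 6.57, 6.58 and 7.63, and Nes, nestin, 4.14, 4.10 and 5.37, each with control replicate 3 about 1 log2 unit above the other controls. Their differences of -0.99, -0.91 and -0.88 were -0.72, -0.62 and -0.60 without BMP6h replicate 2, and none of the 3 then passed. A second probe set of each stood at -0.29, 0.18 and -0.08. On the higher side, 27 probe sets differed by more than 1 log2 unit, of which 13 passed the thresholds of the Methods. On 15 of the 27, replicate 2 lay more than 1 log2 unit above the other BMP6h arrays, and 11 of the 27 stayed over 1 without it. Where a gene has several probe sets, agreement between them is a further description: of the 108 genes, 54 have more than 1, all probe sets had the same sign in 38, and 2 or more passed in 14, among them Dusp1, Id3, Map3k1, Cited2, Gadd45a, Cxcr4 and Rxrg.

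The 24 hr arrays share the same controls, so the values are only set side by side. Of the 151 probe sets called at 6 hr, 46 were within 1.2-fold of control at 24 hr, 21 higher and 25 lower ones, 105 were beyond 1.2-fold in the same direction, and 0 were beyond it in the opposite one. Within 1.2-fold of control at 24 hr were Drgx, at 6.26, 6.15 and 6.14, Map3k1, at 7.69, 7.85 and 7.99 at its brightest probe set, Klf9 (0.90 at 6 hr and 0.12 at 24 hr), Rxrg (0.76 and 0.18), Pmepa1 (0.89 and 0.26) and Shb (0.70 and 0.10), the last named after its values were seen. The 24 hr arrays of Rxrg (7.12, 7.20 and 7.26) and Pmepa1 (8.88, 9.08 and 8.79) still lay above every control array. Pmepa1 was only just inside the 1.2-fold limit. Id2 stood at 2.43 and 1.98, Id3 at 1.76 and 1.71 and Id1 at 1.99 and 2.04, so the Id genes were still high a day after BMP-7. Others were only part of the way at 6 hr. Ngfr was at 0.73 and then 1.91, Jag1 at 0.73 and 1.50, Cxcr4 at 0.52 and 1.49, Hpcal1, a neuronal calcium sensor, at 0.45 and 1.66, and Nog at 2.10 and 2.83. Egr1 was lower at 6 hr and higher at 24 hr at its 4 probe sets, most at the brightest (-0.63 and 1.24). Between 24 hr and 6 hr, 0 probe sets passed an adjusted p of 0.05 in limma, where the lowest was 0.114, and 259 had an unadjusted p under 0.05.

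**Figure D5:**
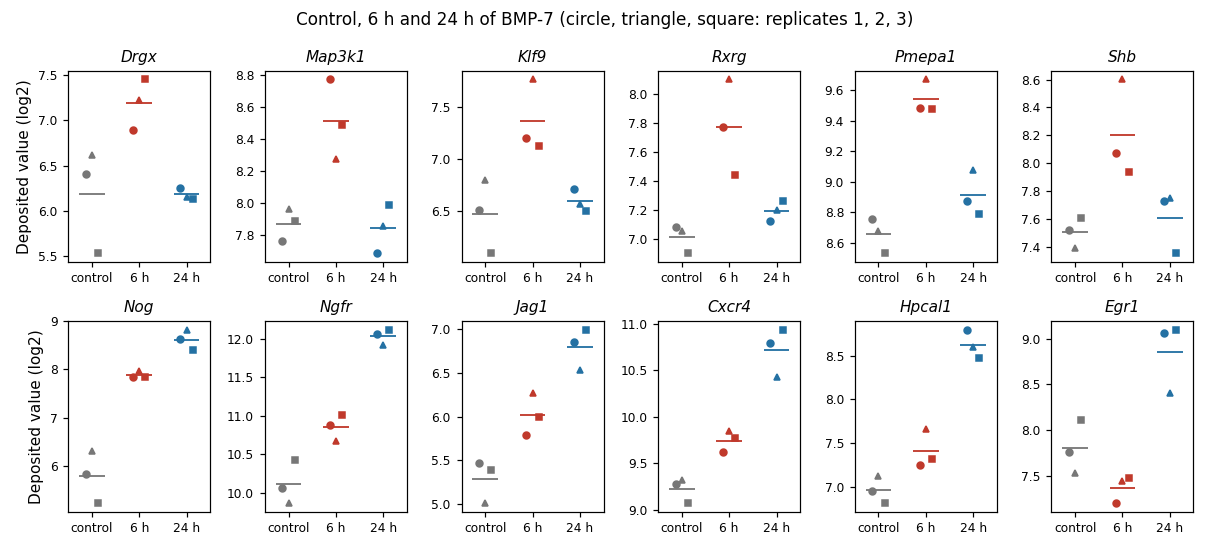
Deposited log2 values (y axis, a separate range for each gene) in control, after 6 hr and after 24 hr of BMP-7 (x axis), with the 3 replicates as circles, triangles and squares and group means as lines. In the upper row the 24 hr means lie within 1.2-fold of control, though the 24 hr arrays of Rxrg and Pmepa1 lie above every control array. In the lower row the 24 hr arrays lie above the 6 hr arrays.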

How the data were processed

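Expression in cultured rat sympathetic neurons was measured on 9 Affymetrix rat genome arrays, 3 per condition. The authors normalized the arrays with RMA in Partek, removed the array batch from the result and deposited it as log2 values, here between 2.69 and 14.38. No probe set's mean differed between the batches by over 6.7e-05, so a batch effect can no longer be read from the values. No pair of arrays was identical. Read depth does not apply, and precision is limited by how many arrays there are.

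The 59 control probe sets were left out. Of the 8740 others, 7006 name 1 gene in the platform annotation (4736 genes), 308 name several and 1426 none. BMP6h was compared with control in limma 3.58.1 (R 4.3.3) over all 9 arrays, with condition and batch as terms and 5 residual degrees of freedom, two-sided, with Benjamini-Hochberg adjustment. "Rose" is kept for an adjusted p under 0.05, and "higher", "lower" and "passed" for the thresholds of the Methods in lists. A gene counted as higher or lower where any of its probe sets passed, and list medians used its brightest probe set. The fit was tested on simulated data.

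The comparison, the gene lists and the rule for the genes named were chosen with earlier results of these data known. The rule takes every probe set past the adjusted test, up to 15 higher and 15 lower genes with the largest changes whose arrays do not overlap, list members that pass or stand at the head of a list, genes that the study lists for 6 hr, and the 10 genes farthest up and down on BMP6h replicate 2. Promoters came from the RefSeq table of GRCr8. Genes that passed only without BMP6h replicate 2 (Btg1, Pou3f1, Tcf12, Fgfr1 and Adm) were named after their values were seen. The alternatives are given in the closing section. Protein sequences were not used here.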

Additional observations from a re-analysis of the deposited data

How the results depend on the processing

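The count of 4 probe sets past the adjusted test was fragile. It was 0 with the ordinary two-way analysis of variance (151 at an unadjusted p under 0.05), with array batch 2 alone (153 in limma) and with the 6 arrays of the compared groups alone (108). It was 9 with no batch term, 7 without the dimmest 25% of probe sets, 10 with an intensity trend in the prior variance and 45 with array weights (42 rose and 3 fell). Leaving out 1 array gave 0 to 3. The arrays whose absence gave 0 in limma were replicate 1 of control, replicate 1 of BMP6h and replicate 2 of BMP24h, where 266, 219 and 142 probe sets had an unadjusted p under 0.05. It was 1 without BMP24h replicate 1 or 3 and 2 without BMP6h replicate 3. Of 20 alternatives, Id2 passed in 14 (highest adjusted p 0.46), the unnamed probe set rc_AI230256_at in 10, Id3 in 9 and Dusp1 in 6. None changed direction, though several alternatives cannot change the log2 fold change, as set out below.

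The count of 151 at the thresholds of the Methods was 82 with the two-way analysis, 263 with no batch term, 398 with array weights, 75 with a fold minimum of 1.5 and 81 for genes at the mean of their probe sets. Leaving out 1 array gave 67 (without control replicate 3) to 609 (without BMP6h replicate 3), with 266 without control replicate 1 and 95 without BMP24h replicate 1. Leaving out BMP6h replicate 2 and control replicate 3 together, chosen after the data were seen, gave 132 (105 higher, 27 lower) and 4 past the adjusted test. The split of 77 higher and 74 lower was 112 and 151 with no batch term, 264 and 134 with array weights, 54 and 28 with the two-way analysis and 64 and 89 in batch 2.

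With the replicate block in place of the batch term, 4 passed the adjusted test and 415 the thresholds of the Methods (143 higher, 272 lower). The 4 were not the same: Nog came in (adjusted p = 0.0438 in limma) and Dusp1 went out (adjusted p = 0.0835), while Id2, Id3 and rc_AI230256_at passed. Each dissection gave all conditions, but nothing in the sources used here says that a replicate number marks a dissection. Deviations of same-numbered control and BMP6h arrays correlated at -0.74, -0.08 and 0.07, but the batch removal binds these deviations, so the check cannot tell whether the numbers pair the arrays. No log2 fold change of the 32 probe sets followed (the 4 that rose and the largest of each direction) reversed in 634 refits. Many of these refits could not reverse it, since the design is balanced. The two-way analysis, a changed or absent batch term, the intensity trend and removal of dim probe sets leave the log2 fold change as it was. So do the compared groups alone and the loss of a BMP24h array. The probe sets were also picked for large changes, so the lack of reversals is weak evidence. In 22 refits a probe set newly passed the adjusted test, and in 41 it no longer did. Of 75 recomputed list medians, 19 moved by more than the spread between the BMP6h arrays. Array weights were estimated gene by gene, from 0.093 (BMP6h replicate 2) to 5.76 (BMP24h replicate 1). The cause of these shifts was not tested.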

Other observations

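Besides rc_AI230256_at, other probe sets that name no gene here passed the thresholds of the Methods at 6 hr. Whereas rc_AI230256_at stood nearer to control at 24 hr (1.93 at 6 hr and 1.34 at 24 hr), those given here stood farther from it. The probe set rc_AA900503_at read 6.37, 6.11 and 5.70 in control and 7.11, 7.27 and 7.46 in BMP6h, a log2 difference of 1.22 (SE 0.22, adjusted p = 0.418 in limma), and it read 8.33, 8.30 and 8.78 after 24 hr. The probe set rc_H31342_at read 7.17, 7.02 and 6.69 in control, 7.44, 7.94 and 7.74 in BMP6h and 8.53, 8.44 and 8.46 after 24 hr, and its difference at 6 hr was 0.74 (SE 0.18, adjusted p = 0.887 in limma). Neither overlapped between BMP6h and control. Both were chosen after their values were seen.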
